A study of Mus musculus with 10 samples.

Results

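Accessible chromatin was described around 8 genes of steroid receptor signalling: Nr3c1, which encodes the glucocorticoid receptor, and Fkbp5, Tsc22d3, Per1, Sgk1, Tmprss2, Zbtb16 and Pbsn, which are known to respond to glucocorticoids or androgens. A member is a called region that overlaps one of these genes in GENCODE M21 or the 50 kb on either side of it. Called intervals of 5 peak lists were merged where they overlapped by 1 bp. This gave 292 member regions out of 211107 in all, in 7 of the 8 windows. Fkbp5 had 72, Tsc22d3 31, Per1 47, Sgk1 32, Tmprss2 25, Zbtb16 77 and Pbsn 8, and no interval of any list was found in the Nr3c1 window.

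The data are ATAC-seq peak lists, in which a transposase marks open DNA, of Myc-CaP cells, a mouse prostate cancer line derived from a male of strain FVB/NJ. All groups are this 1 line, which arose in a mouse whose MYC transgene was driven by a probasin promoter. Cells were left untreated (Ctrl), or received oxaliplatin at 2 µM (Oxali), cisplatin at 2 µM (Cispl), interferon-γ at 1000 pg, per ml in the study's methods (IFNγ), or oxaliplatin at 2 µM with interferon-γ at 1000 pg (combo, drawn as Oxali + IFNγ in the plots), all for 48 h. The labels name no steroid among the agents and serum in the medium of every group. The authors pooled the 2 libraries of each group before calling, so each group is 1 list, no difference could be set against the spread between replicates and no test was possible.

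Steroid receptors sit in the cytoplasm or nucleus in complexes with HSP90 and immunophilins such as FKBP5. On binding hormone several of these receptors pair up on DNA at palindromic response elements, often in enhancers far from the start site. Androgens drive growth and differentiation in the prostate, where TMPRSS2 and probasin are classical androgen-induced products. FKBP5, TSC22D3 (also called GILZ), PER1, SGK1 and ZBTB16 are induced by glucocorticoids in many cell types, and several of them by androgens as well.

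The response element searched for is AGAACA, then 3 bases of any kind, then TGTTCT. It is its own reverse complement, so both strands are covered, and it contains both half-sites that were also counted alone. Matches were searched within 150 bp of the strongest summit of each region. The sequences are from the GRCm38.p6 reference of strain C57BL/6J, not from FVB/NJ cells. The 9 member regions with at most 1 mismatch in the 12 fixed bases are shown on the plus strand, because later paragraphs follow their levels. Capitals mark the element, positions are counted from 1 at its left end, and the letter after each gene name gives the order along the chromosome.
Fkbp5-A, no mismatch, chr17:28420291-28420365: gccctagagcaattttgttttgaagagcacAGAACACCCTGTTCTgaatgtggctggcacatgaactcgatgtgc
Fkbp5-B, no mismatch, chr17:28442389-28442463: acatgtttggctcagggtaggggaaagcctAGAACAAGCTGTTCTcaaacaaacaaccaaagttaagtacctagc
Per1-A, T15C, chr11:69097046-69097120: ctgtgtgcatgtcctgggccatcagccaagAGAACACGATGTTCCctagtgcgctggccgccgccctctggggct
Per1-B, A1G, chr11:69099386-69099460: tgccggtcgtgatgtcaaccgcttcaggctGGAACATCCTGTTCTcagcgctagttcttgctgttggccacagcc
Tsc22d3-A, T13G, chrX:140513524-140513598: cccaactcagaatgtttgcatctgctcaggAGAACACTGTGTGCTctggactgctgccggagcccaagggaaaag
Tsc22d3-B, T12C, chrX:140527330-140527404: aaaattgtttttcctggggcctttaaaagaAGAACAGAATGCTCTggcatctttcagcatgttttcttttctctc
Zbtb16-A, G2A, chr9:48637032-48637106: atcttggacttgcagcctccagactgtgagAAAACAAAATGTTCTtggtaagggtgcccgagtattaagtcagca
Zbtb16-B, G11A, chr9:48685913-48685987: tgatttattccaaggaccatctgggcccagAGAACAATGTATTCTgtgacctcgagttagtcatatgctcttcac
Zbtb16-C, A3G, chr9:48775794-48775868: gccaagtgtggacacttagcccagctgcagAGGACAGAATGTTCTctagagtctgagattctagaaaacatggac

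The exact element occurs 3 times in the 8 windows, and 2 of these are the Fkbp5 sites above. The third lies in a promoter of Sgk1, shown whole from RefSeq (GRCm38.p6, plus strand, 250 bases before to 50 after the start). It is one of 3 exact matches among the 32851 promoters of the RefSeq table, or 0.00913%, while 1.84% of those promoters hold a match with at most 2 mismatches.
Sgk1 promoter, chr10:21993640-21993939: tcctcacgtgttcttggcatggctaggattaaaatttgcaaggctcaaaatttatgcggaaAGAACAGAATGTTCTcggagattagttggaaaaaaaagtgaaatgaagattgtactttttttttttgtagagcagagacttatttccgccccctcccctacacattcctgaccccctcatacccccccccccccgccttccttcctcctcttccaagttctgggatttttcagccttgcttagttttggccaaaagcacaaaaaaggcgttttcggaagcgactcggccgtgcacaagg
The capitals at chr10:21993701-21993715 fall in no called interval of any list. The nearest member region begins 66 bp to the right of them. Over the genome 639 exact elements were found, and 213 of them (33.3%) lie in a called region.

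Genome background scales with reads and stood at 92.9% of that of Ctrl in the Oxali list, 113% in Cispl, 79.3% in IFNγ and 106% in combo. The level of a region is its highest pileup divided by the genome background of its list, so it is a multiple of background and carries no length scale. Copies of a locus and its accessibility cannot be told apart in it. The lists reach down to a −log10 p of 2.00, but the Cispl list ends at 2.99, and the lowest level that can be called over genome background was 1.70 to 1.96. Among luminal prostate genes, 4 had a start-site region in Ctrl (Krt8 at 88.8, Hoxb13 at 93.8, Foxa1 at 98.6 and Krt18 at 3.54), while Epcam and Cdh1 had none. Among 10 markers of blood, vessel and stroma, 3 had one, at 2.39 to 49.9, the highest at the collagen gene Col1a1.

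The window of Nr3c1 (ENSMUSG00000024431.15, chr18:39410545-39519421, minus strand) lies in a gap of 499 kb without a called region. Windows without any region were found for 1468 of 21938 protein-coding genes (6.69%), and 431 gaps were at least as long. Whether the intervals used here cover this stretch completely is not known, so accessibility of Nr3c1 was not analysed here.

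The remaining 7 genes were richly covered. Of the 292 members, 189 were called in Ctrl, 198 after Oxali, 244 after Cispl, 194 after IFNγ and 224 after combo. These are 64.7%, 67.8%, 83.6%, 66.4% and 76.7% of the members, against 52.4%, 70%, 77.4%, 50.8% and 79.1% of all regions in the same order. All 5 lists called 153 of them (52.4%, against 40.4% of all regions), and 62 (21.2%, against 23.7%) were called in 1 list. Members were stronger than the average region, with a median level of 10.0 over the lists against 4.62. Their GC content was alike, with medians of 49.7% and 47.7%, and 21.6% lay within 1 kb of any start site, against 15.9%. Regions were densest around Per1, at 41.0 per 100 kb of window, and sparsest around Pbsn, at 6.91. The Per1 window also holds 8 other protein-coding genes, among them Aurkb, Vamp2 and Hes7, and 26 members lay at the start site of another gene only.

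The number of called regions varied between lists in different ways among the genes. Tmprss2, a serine protease gene, went from 11 in Ctrl and 11 after IFNγ to 18 after Oxali, 18 after Cispl and 23 after combo. Around Fkbp5 there were 50 in Ctrl, 44 after Oxali, 57 after Cispl, 47 after IFNγ and 49 after combo. Around Zbtb16, which encodes a zinc finger repressor, the counts were 50, 47, 64, 53 and 54 in the same order. Tmprss2 thus had its fewest calls in the lists without a platinum drug, as all regions did, while for Fkbp5 and Zbtb16 the Oxali list had the fewest. As shares, 44% of the Tmprss2 regions were called in Ctrl (against 52.4% of all regions) and after IFNγ (50.8%), 72% after Oxali (70%) and Cispl (77.4%) and 92% after combo (79.1%). The shares after Oxali and Cispl were thus near those of all regions.

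**Figure D1:**
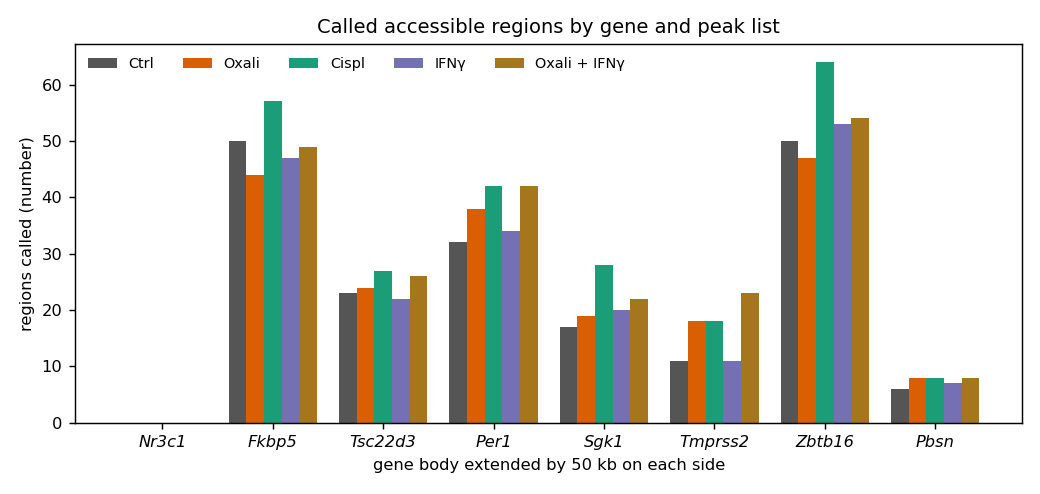
Bars give the number of merged regions that each of the 5 peak lists called within 50 kb of each gene; the vertical axis starts at 0. Tmprss2 goes from 11 in Ctrl to 23 after combo, while Fkbp5 and Zbtb16 have the most in Cispl, at 57 and 64.

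A region was gained when its q-value was at most 0.01 in one list and the other list had no interval in it, and lost in the mirror case. After Oxali, 34 members (11.6%) were gained against Ctrl, while 21.4% of all regions were, and 20 (6.85%) were lost, against 4.59%. After Cispl 65 (22.3%) were gained, against 27.9%, and 7 (2.40%) were lost, against 3.09%. IFNγ gave 21 gained (7.19%, against 5.74%) and 15 lost (5.14%, against 7.81%). Combo gave 54 gained (18.5%, against 29.2%) and 14 lost (4.79%, against 3.91%). The share of members gained was thus below that of all regions in each list with a platinum drug, and no test was possible. Only a region without a Ctrl interval can be gained, and Ctrl called 64.7% of members against 52.4% of all regions. This alone lowers the share of members that could be gained. The comparison therefore does not show fewer gains among regions without a Ctrl interval. Many gains lie beside open DNA of Ctrl, as 13 of the 34 after Oxali, 24 of the 65 after Cispl, 12 of the 21 after IFNγ and 25 of the 54 after combo lie within 500 bp of a Ctrl interval.

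Levels were compared for members called in both lists, with a difference counted past 1.5-fold. Oxali left 20 of 163 members higher (12.3%, against 29.2% of all regions) and 30 lower (18.4%, against 7.68%). Cispl left 17 of 178 higher (9.55%, against 25.5%) and 35 lower (19.7%, against 12%). IFNγ left 5 of 170 higher (2.94%, against 4.26%) and 32 lower (18.8%, against 18.4%). Combo left 22 of 169 higher (13.0%, against 30.4%) and 47 lower (27.8%, against 14.3%). The median log2 ratio of members was −0.14 after Oxali, −0.20 after Cispl, −0.33 after IFNγ and −0.24 after combo, and that of all regions 0.19, 0.13, −0.23 and 0.18. The 4 comparisons share the Ctrl list. The deposited fold divides a pileup by the background of its surroundings instead, and with it fewer members were lower: 7.36% after Oxali (against 4.80% of all regions), 12.4% after Cispl (6.34%), 4.71% after IFNγ (12.7%) and 14.8% after combo (9.49%). The shares that were higher by this local fold were 9.82% (against 21.3%), 5.62% (19.3%), 1.76% (2.83%) and 12.4% (22.1%) in the same order. Many single differences past 1.5-fold also ended with the local fold, which is given below beside the main ones.

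The level of a region in Ctrl moved with these ratios. Over all regions called in 5 lists, the class with the lowest Ctrl levels (1.73 to 4.78) had median log2 ratios of 0.67 after Oxali, 0.65 after Cispl and 0.78 after combo, and the class with the highest (38.6 and above) −0.35, −0.59 and −0.67. The end classes of the members lay the same way round, with 0.49, 0.46 and 0.69 for the 15 in the lowest and −0.28, −0.52 and −0.58 for the 63 in the highest. The classes between did not fall in step after Oxali, where classes 2, 3 and 4 from the lowest (22, 18 and 35 members) were at −0.13, 0.05 and −0.10, against 0.38, 0.19 and 0.05 for all regions. Centred on regions of like level, the members' medians were −0.12 after Oxali, −0.08 after Cispl, −0.04 after IFNγ and −0.17 after combo. The distance of members from all regions was thus smaller among regions of like level. Members at a start site of their own gene numbered 30. Of those called in both lists, 4 of 22 were lower past 1.5-fold after Oxali, 10 of 23 after Cispl, 10 of 21 after IFNγ and 9 of 21 after combo, against 19.0%, 33.5%, 30.8% and 41.8% of all start-site regions, and at most 1 was higher with any agent. By the local fold 1, 5, 0 and 4 of them were lower, against 4.51%, 9.57%, 9.26% and 19.1%. All regions called in 5 lists had a median log2 ratio of 0.15 after Oxali, 0.07 after Cispl, −0.25 after IFNγ and 0.14 after combo, which is the shift to read single ratios against.

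**Figure D2:**
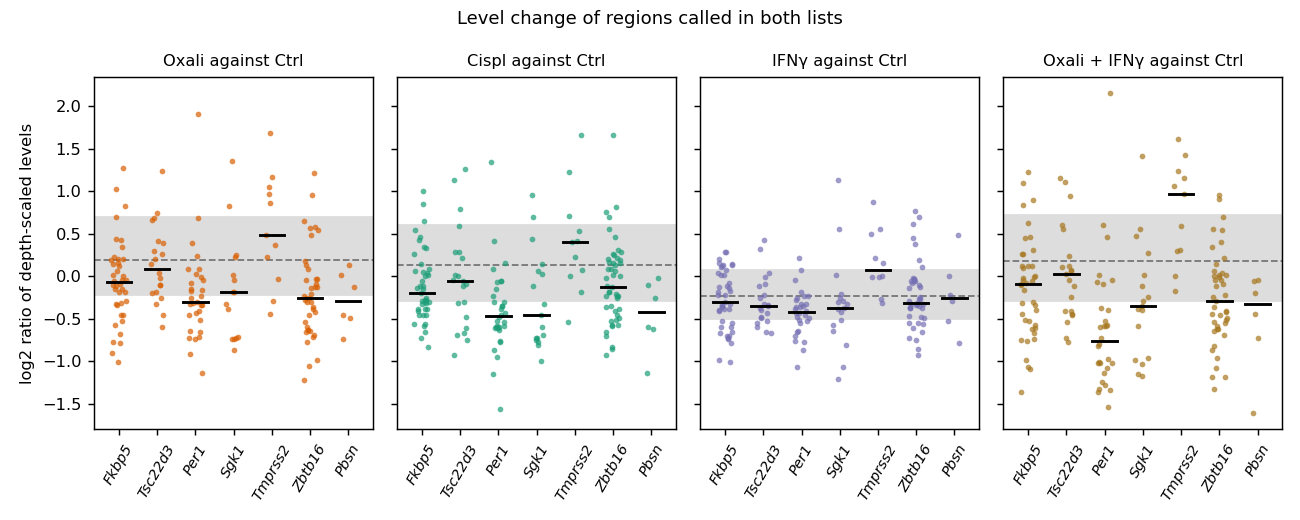
Each point is the log2 ratio of depth-scaled levels of 1 member region called in both lists, by gene and treatment. Black bars are medians per gene, and the dashed line and grey band are the median and interquartile range of all regions. The Tmprss2 median is the highest of the 7 in each panel, at 0.97 after combo, and the Per1 median the lowest after combo, at −0.75.

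Fkbp5 (ENSMUSG00000024222.17, chr17:28399094-28517527, minus strand), which encodes a co-chaperone that lowers receptor affinity for hormone, has open regions at its 5′ end and at an internal start site. At the 5′ end (chr17:28517467-28518414, 0.741 kb from the start) the level was 112 in Ctrl, 97.9 after Oxali, 81.6 after Cispl, 77.8 after IFNγ and 72.5 after combo. Ctrl was the highest list, and the combo ratio of 0.650 (95% exact counting interval, 0.597 to 0.707) was the lowest (0.745 by the local fold), but its log2 value of −0.62 turned to 0.33 after centring on regions of like level, and those after Oxali and Cispl turned to 0.35 and 0.32. These intervals cover counting error only. The internal start site (chr17:28484893-28486721, 0.031 kb from the start) stood at 151 in Ctrl, 80.7 after Oxali, 84.6 after Cispl, 94.8 after IFNγ and 58.7 after combo. Its ratio to Ctrl was 0.536 (0.495 to 0.581) after Oxali and 0.390 (0.357 to 0.424) after combo, the largest difference among Fkbp5 regions called in all lists. It stayed below regions of like level, at −0.36 and −0.41 on the log2 scale, and past 1.5-fold by the local fold with both, at 0.598 and 0.565, but not after IFNγ, at 0.918.

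The intron between these start sites carried the strongest Fkbp5 region by mean level (chr17:28515897-28516570), at 144, 116, 91.3, 86.6 and 90.5 in the order Ctrl, Oxali, Cispl, IFNγ and combo. Centring on regions of like level turned its direction after Oxali, from −0.31 to 0.23, after Cispl, from −0.66 to 0.11, and after combo, from −0.67 to 0.28, while the local fold ended the difference past 1.5-fold after IFNγ, at 0.820. A nearby intronic region (chr17:28512069-28513218) differed little between lists, with 88.3 in Ctrl, 89.0 after Oxali, 82.1 after Cispl and 88.1 after combo, but stood at 58.4 after IFNγ, a ratio of 0.661 that was 0.911 by the local fold. The gain with the highest −log10 q of the window (chr17:28510826-28511063), the measure by which gains are ranked here, was called after Oxali at 29.8, after Cispl at 26.7 and after combo at 27.8. It lies 1071 bp from the nearest Ctrl interval, and its local background in the Oxali list was 147, far above the genome background of 11.3, so a call there needs a much higher pileup than elsewhere. By level a gain at chr17:28515509-28515762 was higher, at 48.5, 35.5, 21.9 and 41.1 after Oxali, Cispl, IFNγ and combo, and lies 147 bp from a Ctrl interval.

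Tsc22d3 (ENSMUSG00000031431.13, chrX:140539528-140600659, minus strand) encodes a leucine zipper protein that carries part of the anti-inflammatory action of glucocorticoids. Its 5′ end (chrX:140600424-140601302) was at 48.1 in Ctrl, 38.1 after Oxali, 30.2 after Cispl, 40.4 after IFNγ and 35.6 after combo. Just inside the gene a second region (chrX:140598661-140600189) was at 51.3, 68.3, 49.3, 39.0 and 53.5 in that order. It was highest after Oxali, at a ratio of 1.33 (1.2 to 1.48), and within 1.5-fold in all lists. The internal start site (chrX:140542594-140543700, 0.066 kb away) was at 69.3, 60.5, 43.1, 51.5 and 52.1. The 5′ end and this site were past 1.5-fold lower after Cispl alone, at ratios of 0.628 (0.553 to 0.714) and 0.622 (0.559 to 0.692). By the local fold the internal site was past it after combo too, at 0.637. A flanking piece (chrX:140542055-140542540), called at 18.2 after Oxali, 11.5 after Cispl and 17.9 after combo, was the gain with the highest −log10 q but lies 73 bp from a Ctrl interval. A gain at chrX:140518458-140519295 was at 17.1, 18.4 and 20.4 after Oxali, Cispl and combo, higher by level than that piece after Cispl and combo and lower after Oxali.

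Among Tsc22d3 regions called in all 5 lists, the one that differed most from Ctrl carries the element Tsc22d3-B, 15.2 kb downstream of the closest start (chrX:140526944-140527933). Its level was 19.2 in Ctrl and 12.8 after IFNγ, and 45.3 after Oxali, 42.1 after Cispl and 41.3 after combo. The 3 platinum lists were thus all above the other 2. The ratio to Ctrl was 2.36 (2.02 to 2.77) after Oxali, 2.19 (1.88 to 2.56) after Cispl and 2.15 (1.84 to 2.52) after combo. Against regions of like level the log2 difference was 1.15, 1.2 and 1.05, so it stood out from its strength class too. By the local fold the ratios were smaller, at 1.64, 1.48 and 1.53, and the one after Cispl was no longer past 1.5-fold. The strongest region of the window by mean level (chrX:140519798-140521043) was highest in Ctrl, with 138, against 101 after Oxali, 82.0 after Cispl, 87.1 after IFNγ and 80.7 after combo, though centring on regions of like level turned the Oxali, Cispl and combo log2 ratios to 0.08, 0.02 and 0.18, and its ratios by the local fold were 0.785, 0.659, 0.737 and 0.698 in the order of the treated lists. A neighbour (chrX:140528937-140529776) with a 2-mismatch element went from 32.2 in Ctrl to 37.1, 30.2, 21.9 and 38.0 after Oxali, Cispl, IFNγ and combo, all within 1.5-fold by level, while the local fold ratio after Cispl was 0.640.

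**Figure D3:**
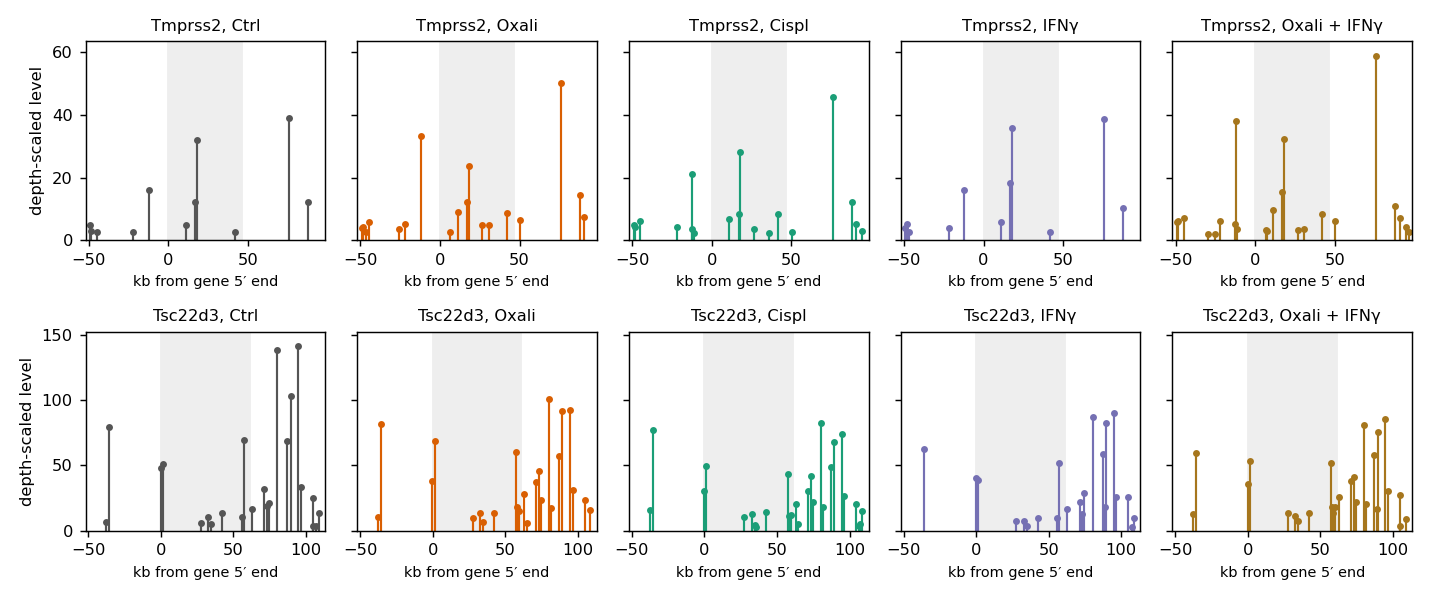
Each stem is a called region at its distance in kb from the 5′ end of Tmprss2 (upper row) or Tsc22d3 (lower row), negative upstream, with the depth-scaled level of the list on the vertical axis; the gene body is shaded. The Tmprss2 window has 11 stems in Ctrl and 23 after combo, with none at 0 kb in any list, while the Tsc22d3 5′ end is called in all 5.

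Per1 (ENSMUSG00000020893.17, chr11:69095217-69109960, plus strand), a core clock gene with fast glucocorticoid induction, had the highest start-site level of the 7 genes. Its 5′ end (chr11:69094452-69095377) was at 215 in Ctrl, 137 after Oxali, 126 after Cispl, 160 after IFNγ and 102 after combo. The combo ratio was 0.472 (0.442 to 0.505), and against regions of like level −0.13 on the log2 scale. No list was past 1.5-fold there by the local fold, with ratios of 0.907 after Oxali, 0.842 after Cispl, 1.07 after IFNγ and 0.874 after combo. An internal start site (chr11:69098637-69099038) was at 115, 68.8, 63.3, 67.1 and 47.1, and there the combo list was also low for its strength, at −0.62. That difference too was within 1.5-fold by the local fold, at 0.730. Of the 30 Per1 regions called in both Ctrl and combo, 17 were lower past 1.5-fold and 2 higher, against 14.3% and 30.4% of all regions. Per1 regions called in all lists were strong, with a median Ctrl level of 79.4, and the median log2 ratio of −0.75 after combo moved to −0.36 when centred on regions of like level. The local fold left 7 of the 30 lower and 1 higher, with a median of −0.33.

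One distal Per1 region went the other way. At chr11:69153848-69154572, 53.6 kb from the closest Per1 start, the level was 2.97 in Ctrl, 3.43 after IFNγ, 11.1 after Oxali, 7.48 after Cispl and 13.2 after combo. The ratio was 3.74 (2.56 to 5.58) after Oxali and 4.44 (3.09 to 6.55) after combo, the largest among all Per1 regions called in 5 lists. Both were smaller by the local fold, at 2.87 and 2.80. The gain with the highest −log10 q here (chr11:69071246-69071607) was called in every treated list, at 31.9 to 46.7, but lies 65 bp from a Ctrl interval at the start of Tmem107.

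Sgk1 (ENSMUSG00000019970.15, chr10:21882184-21999903, plus strand) encodes a kinase that raises sodium channel activity. The start-site region that begins inside the promoter shown above, to the right of its element (chr10:21993781-21995004), was at 194 in Ctrl, 116 after Oxali, 97.2 after Cispl, 125 after IFNγ and 87.6 after combo. Ctrl was the highest list, and ratios were 0.600 (0.560 to 0.642) after Oxali, 0.501 (0.468 to 0.536) after Cispl, 0.643 (0.600 to 0.690) after IFNγ and 0.452 (0.420 to 0.485) after combo. Centred on regions of like level, the log2 ratios were −0.20, −0.22, −0.08 and −0.20 in that order, where the combo value was −1.15 before centring, so most of the difference was shared by regions of like level. The local fold ratios were 0.719, 0.798, 0.899 and 0.609, and only that after combo was past 1.5-fold. After IFNγ the direction turned when pileups were summed over summits, to 0.09 on the log2 scale. On the left of the exact element, the region at chr10:21992821-21993341 was at 66.9 in Ctrl, 67.7 after Oxali, 49.0 after Cispl, 53.6 after IFNγ and 62.0 after combo, all within 1.5-fold. Among regions called in 5 lists, the largest ratio belonged to one 48.3 kb upstream (chr10:21833738-21834266), with 4.2 in Ctrl, 10.7 after Oxali, 4.29 after Cispl, 6.13 after IFNγ and 11.2 after combo. Only the lists with oxaliplatin were past 1.5-fold there.

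Zbtb16 (ENSMUSG00000066687.5, chr9:48654297-48836222, minus strand) had the most members. Its 5′ end (chr9:48835589-48836901) was at 118 in Ctrl, 96.4 after Oxali, 79.3 after Cispl, 65.6 after IFNγ and 66.9 after combo. The IFNγ ratio was 0.554 (0.503 to 0.608), while the combo ratio of 0.565 (0.519 to 0.615) turned to 0.13 on the log2 scale after centring on regions of like level, as the Oxali and Cispl ratios did, to 0.24 and 0.19. The IFNγ and combo ratios were within 1.5-fold by the local fold, at 0.785 and 0.767. An intronic region (chr9:48740042-48740670, 95.6 kb from the start) was at 80.1, 38.7, 44.4, 50.6 and 32.0, with ratios of 0.483 (0.430 to 0.541) for Oxali and 0.400 (0.355 to 0.449) for combo. It was also low for its strength with both, at −0.93 and −1.05, and past 1.5-fold by the local fold, at 0.515 and 0.472. The strongest Zbtb16 region by mean level (chr9:48786716-48787632) was at 123, 84.8, 64.9, 98.2 and 67.3, and its combo log2 ratio turned to 0.08 after the same centring. Its Cispl and combo ratios of 0.527 and 0.547 became 0.680 and 0.832 by the local fold. The gain with the highest −log10 q (chr9:48765750-48766521) was intronic too, with 9.94 after Oxali, 7.12 after Cispl and 9.14 after combo, 2495 bp from any Ctrl interval.

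**Figure D4:**
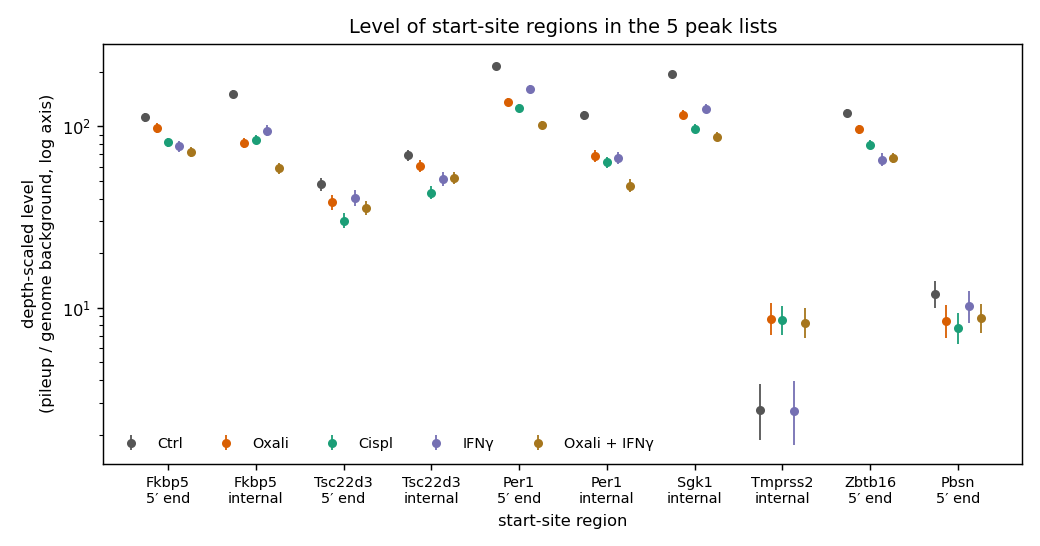
Points give the depth-scaled level of start-site regions in each list on a log axis, with 95% exact Poisson intervals that cover counting error only. Of the 10 regions drawn, which are not all start-site regions of these genes, Ctrl is the highest list at the 9 outside Tmprss2, and at the internal Tmprss2 site the 3 platinum lists lie at 8.29 to 8.69, above Ctrl at 2.72. Some start-site regions not drawn are highest after Oxali, and others in Ctrl. Highest after Oxali are chrX:140598661-140600189 at Tsc22d3 (68.3, against 51.3 in Ctrl) and chr17:28442021-28443199 at Fkbp5 (34.7, against 25.9).

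Tmprss2 (ENSMUSG00000000385.8, chr16:97564682-97611195, minus strand) had the highest median log2 ratio of the 7 genes in each comparison with Ctrl, at 0.49 after Oxali, 0.40 after Cispl, 0.08 after IFNγ and 0.97 after combo. It was also the highest by the local fold, at 0.26, 0.12, −0.09 and 0.47, where the direction after IFNγ turned. No list had a region within 1 kb of its 5′ end. The single start-site region lies at an internal transcript (chr16:97568728-97569819) and was at 2.72 in Ctrl, 2.70 after IFNγ, 8.69 after Oxali, 8.57 after Cispl and 8.29 after combo. The ratios were 3.20 (2.14 to 4.90), 3.15 (2.13 to 4.79) and 3.05 (2.05 to 4.65) for Oxali, Cispl and combo, and 0.994 (0.571 to 1.71) for IFNγ. This was the largest difference among Tmprss2 regions called in all lists, and the local fold ratios were close to these, at 3.12, 3.11, 3.00 and 0.982.

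Other Tmprss2 regions ordered the platinum lists differently. A region upstream of the gene (chr16:97622849-97623780) was at 16.1 in Ctrl, 16.1 after IFNγ, 21.1 after Cispl, 33.2 after Oxali and 38.0 after combo, and was chosen after its values were seen. Its ratios of 2.07 after Oxali and 2.36 after combo became 1.41 and 1.38 by the local fold. The gain with the highest −log10 q (chr16:97520157-97520734) was called at 7.36 after Oxali, 5.38 after Cispl and 7.28 after combo, 2337 bp from the nearest Ctrl interval. Its strongest region (chr16:97534564-97536472, 32.2 kb from the closest start) was at 39.0, 50.2, 45.8, 38.8 and 58.7, and the combo ratio of 1.51 (1.34 to 1.69) turned to −0.20 on the log2 scale with the local background fold. Of 11 regions called in both lists, Oxali left 5 higher and 0 lower (against 29.2% and 7.68% of all regions), Cispl 3 and 0 (25.5% and 12%), and combo 7 and 0 (30.4% and 14.3%). The 3 after Cispl, 27.3% of 11, were near the share of all regions. The local fold left 4, 3 and 4 higher and 0 lower. Centred on regions of like level, the median log2 ratio of the window was 0.34 after Oxali, 0.10 after Cispl, 0.33 after IFNγ and 0.58 after combo. Tmprss2 had no region with an element match of at most 2 mismatches.

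Pbsn (ENSMUSG00000000003.15, chrX:77837901-77853623, minus strand) encodes probasin, a secreted lipocalin of the rodent prostate. Its 5′ end (chrX:77853441-77853896) was open at a low level in every list, with 11.9 in Ctrl, 8.43 after Oxali, 7.70 after Cispl, 10.2 after IFNγ and 8.76 after combo. The Cispl ratio was 0.649 (0.5 to 0.84) and the others were within 1.5-fold, at 0.710 (0.542 to 0.927) after Oxali, 0.738 (0.572 to 0.951) after combo and 0.859 (0.657 to 1.12) after IFNγ. Only the IFNγ interval includes 1. Centred on regions of like level, the log2 ratios were −0.87 after Oxali, −0.99 after Cispl, 0.02 after IFNγ and −0.75 after combo. The lists with a platinum drug were thus all past 1.5-fold lower than regions of like level. The median of the 6 Pbsn regions called in both lists was, by the same centring, −0.37, −0.54, −0.02 and −0.72 in that order. The strongest region of the window (chrX:77795018-77796840) lies at the start of Prkx, a kinase gene, and went from 117 to 70.3, 53.3, 68.1 and 38.4. Its ratios of 0.600 after Oxali and 0.581 after IFNγ were past 1.5-fold by level. By the local fold no Pbsn region was past 1.5-fold in either of these lists. A gain 26.6 kb upstream (chrX:77880124-77880344) was at 7.54 after Oxali, 7.19 after Cispl and 5.27 after combo, 16759 bp from any Ctrl interval. No Pbsn region had an element match.

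Matches to the element with at most 2 mismatches were found in 21 members (7.19%, against 5.73% of all regions). With at most 1 mismatch there were 9 (3.08%, against 0.910%), and 2 were exact, of 172 exact ones in all. The reversed sequence, a negative control, gave 7 (2.40%, against 1.56%), and a half-site alone was present in 28.8% of members and 28.1% of all. Regions with a match lay around Fkbp5 (6), Tsc22d3 (3), Per1 (3), Sgk1 (2) and Zbtb16 (7). A match is a description of the letters and says nothing of receptor binding.

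The regions of the 9 closest matches did not move together. Fkbp5-A (region chr17:28419544-28421127) was at 51.2 in Ctrl, 57.0 after Oxali, 42.8 after Cispl, 41.7 after IFNγ and 50.6 after combo. Fkbp5-B (chr17:28442021-28443199) was at 25.9, 34.7, 28.4, 16.3 and 27.8. Both lie in introns, and in both the Oxali list was the highest and IFNγ the lowest. The ratio after Oxali was 1.11 (0.995 to 1.25) for Fkbp5-A and 1.34 (1.15 to 1.56) for Fkbp5-B, both within 1.5-fold, and after IFNγ Fkbp5-B was at 0.631 (0.517 to 0.766), or 0.779 by the local fold. Per1-A went from 110 in Ctrl to 77.0, 73.6, 60.7 and 54.0 after Oxali, Cispl, IFNγ and combo. Per1-B was at 50.1, 40.4, 39.3, 40.1 and 28.3, and its combo ratio of 0.565 (0.495 to 0.644) turned to 0.03 on the log2 scale with the local background fold. Both Per1 sites, in introns, were thus highest in Ctrl and lowest after combo by level. The ratios of Per1-A by the local fold were 0.992, 0.948, 0.794 and 0.894, all within 1.5-fold and lowest after IFNγ.

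Tsc22d3-A, 29.1 kb downstream of the closest start, was at 68.3 in Ctrl, 57.3 after Oxali, 49.0 after Cispl, 58.8 after IFNγ and 57.9 after combo, all within 1.5-fold. Tsc22d3-B was the one of the 9 past 1.5-fold higher by level with the platinum drugs, as given above. Zbtb16-A was weak, at 2.64 in Ctrl, 3.27 after Cispl and 2.08 after IFNγ, with no call after Oxali or combo. Zbtb16-B was at 6.67, 9.31, 7.92, 10.2 and 8.45, with an IFNγ ratio of 1.53 (1.13 to 2.07), or 1.47 by the local fold. Zbtb16-C was at 67, 61.2, 46.9, 47.7 and 57.3, within 1.5-fold throughout. Among 8 of these regions called in both lists the median log2 ratio was 0.01 after Oxali, and it was −0.26 after Cispl and −0.34 after IFNγ over all 9.

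**Figure D5:**
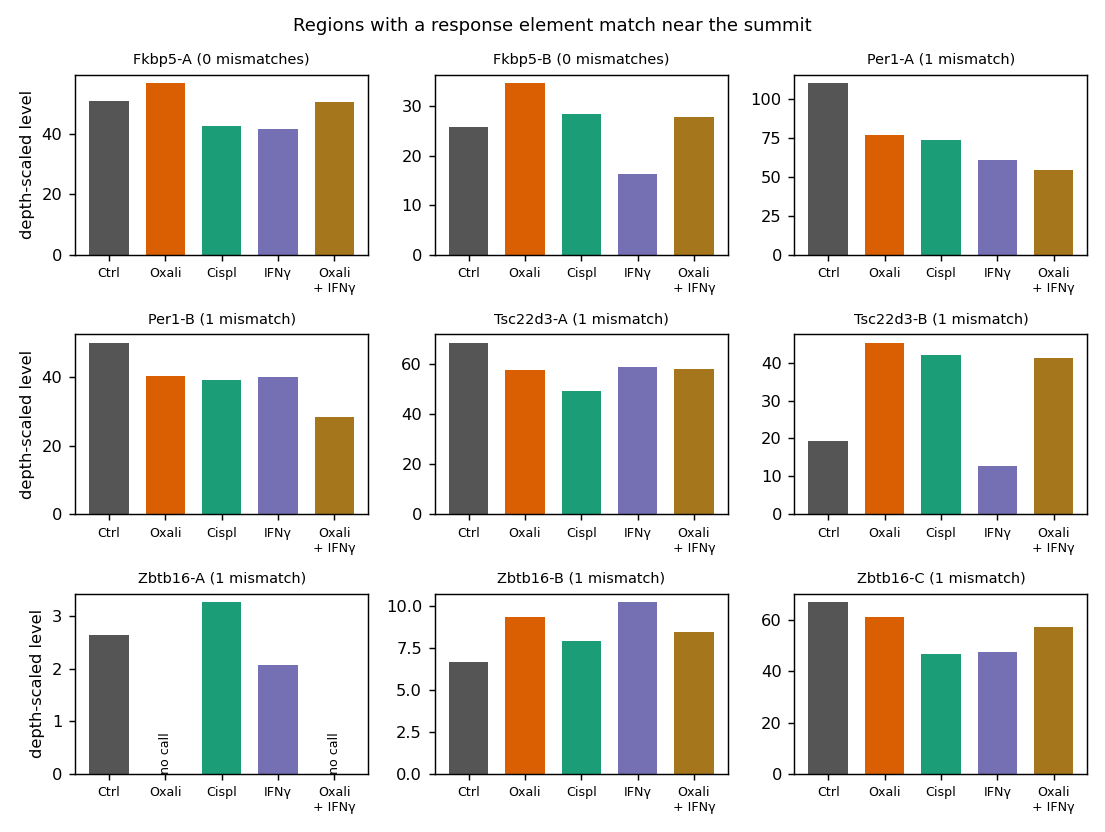
Bars give the depth-scaled level in each list of the 9 member regions whose summit lies within 150 bp of an element with at most 1 mismatch, each panel with its own axis starting at 0. Tsc22d3-B is higher in the 3 platinum lists (41.3 to 45.3) than in Ctrl (19.2) and IFNγ (12.8), while Per1-A is highest in Ctrl (110).

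Cisplatin and oxaliplatin both carry platinum between amine ligands, with chloride leaving groups in cisplatin and a diaminocyclohexane with oxalate in oxaliplatin. They were given at the same dose of 2 µM for 48 h, which allows 1 direct comparison. Cispl against Oxali, 56 members (19.2%, against 15.4% of all regions) were gained and 12 (4.11%, against 7.67%) lost. Of 186 called in both, 13 were higher (6.99%, against 6.95%) and 11 lower (5.91%, against 12.2%), with a median log2 ratio of −0.15 against −0.10 for all regions. Centring on regions of like level turned that median to 0.03, and by the local fold 6 were higher (3.23%, against 5.66%) and 18 lower (9.68%, against 7.99%). The drugs were thus close in level at most members called in both lists, though without replicates this does not show that they act alike. The 56 gained and 12 lost members have no level in one of the lists and are not part of that comparison.

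The largest differences between the drugs went both ways. An intronic Zbtb16 region (chr9:48805918-48806305) was at 2.93 after Oxali and 7.92 after Cispl, a ratio of 2.71 (1.82 to 4.12). An intronic Fkbp5 region (chr17:28501966-28502824) was at 4.44 and 11.2, a ratio of 2.52 (1.82 to 3.54). On the lower side, the region 48.3 kb upstream of Sgk1 was at 10.7 after Oxali and 4.29 after Cispl, a ratio of 0.399 (0.287 to 0.550). A region downstream of Tmprss2 (chr16:97560243-97561834) was at 6.48 and 2.62, a ratio of 0.404 (0.263 to 0.61). At the element Tsc22d3-B, in contrast, the ratio was 0.928 (0.822 to 1.05), and at the internal Tmprss2 start site 0.986 (0.748 to 1.3).

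Adding IFNγ to oxaliplatin gave 31 gained members (10.6%, against 12.5%) and 6 lost (2.05%, against 4.37%) relative to Oxali. Of 192 called in both, 3 were higher (1.56%, against 4.01%) and 15 lower (7.81%, against 4.53%), with a median log2 ratio of −0.09 against −0.01. Per1 held 8 of the 15 lower ones and none of the higher ones, with a median of −0.31, or −0.12 when centred on regions of like level. The local fold left 2 members higher (1.04%, against 3.31%) and 5 lower (2.60%, against 2.19%), and none of the 5 was at Per1. One of the 8 Per1 regions lower by level lies downstream of the gene (chr11:69124122-69124475). It was at 113 in Ctrl, 96.2 after Oxali, 87.4 after IFNγ and 55.6 after combo. Its combo ratio to Oxali of 0.578 became 0.767 by the local fold. At the Prkx start in the Pbsn window the combo ratio to Oxali was 0.546 (0.487 to 0.612). Fkbp5, Tsc22d3 and Sgk1 had medians of −0.06, −0.10 and −0.11, and Tmprss2 of 0.18. By the local fold these were −0.02, −0.02, 0.03 and −0.03, so the direction turned for Sgk1 and Tmprss2.

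Other genes of the pathway were read at their strongest start-site region. Over all start-site regions called in both lists, 19.0% were lower past 1.5-fold and 14.9% higher after Oxali, 33.5% and 13.2% after Cispl, 30.8% and 1.57% after IFNγ, and 41.8% and 15.5% after combo. All 10 chaperone and coregulator genes were called in 5 lists, and 4 were lower after Oxali, 8 after Cispl, 7 after IFNγ and 10 after combo. Fkbp4, another immunophilin, was at 135, 93.2, 78.6, 81.3 and 50.3 in the order Ctrl, Oxali, Cispl, IFNγ and combo. Hsp90aa1, the inducible HSP90, was at 179, 102, 90, 101 and 61.8, and Hsp90ab1, the constitutive one, at 89.6, 53.8, 49.3, 53.4 and 36.3. The start sites of these 3 genes thus stood highest in Ctrl and lowest after combo by level, while others of the 10 were lowest after IFNγ or Cispl. By the local fold 0, 1, 1 and 3 of the 10 were lower in the order Oxali, Cispl, IFNγ and combo, against 4.51%, 9.57%, 9.26% and 19.1% of all start-site regions. Centred on regions of like level, 0, 0, 1 and 4 of the 10 were lower, against 9.2%, 6.76%, 6.07% and 21% of all start-site regions.

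Of 15 further glucocorticoid targets, 13 were called in all lists, and 2 were lower after Oxali, 8 after Cispl, 5 after IFNγ and 10 after combo, or 0, 2, 1 and 7 by the local fold. Centred on regions of like level, 0, 0, 0 and 1 of the 13 were lower in the same order. Klf9, a transcription factor, was at 173, 107, 94.2, 117 and 80.4. Dusp1, a MAP kinase phosphatase, was at 136, 99.1, 88.6, 89.9 and 69.8, and Errfi1, an EGFR inhibitor, at 147, 99.4, 89.8, 89.7 and 67.2. Lcn2, a lipocalin chosen after its values were seen, was the one gene higher after Oxali, at 4.86, 18.6, 24.6, 5.40 and 21.6. Of 12 androgen targets 7 were called in all lists, and 1, 2 and 1 were higher after Oxali, Cispl and combo by level but 1, 1 and 0 by the local fold. By level 1, 3, 1 and 4 of the 7 were lower after Oxali, Cispl, IFNγ and combo, and by the local fold 0, 0, 0 and 2. Centred on regions of like level, 1, 2, 0 and 1 were higher and 0, 0, 0 and 1 lower in that order. Steap4, a metalloreductase, was at 12.6, 22.5, 20.9, 11.5 and 22.6, higher in the platinum lists, while Camkk2, a kinase, was at 107, 88.4, 79.7, 58.8 and 64.9 and Acsl3, which activates fatty acids, at 160, 106, 84.4, 113 and 73.5.

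Among other steroid receptor genes, Esr1 and Esr2 had start-site regions, neither past 1.5-fold in any treated list. Esr1, an oestrogen receptor gene, was at 19.7, 21.4, 18.8, 18.8 and 22.4. Esr2 was at 12.9, 15.3, 16.3, 11.8 and 16.0. Of 4 steroid enzyme genes, Srd5a1, whose product makes dihydrotestosterone, was at 212, 113, 100, 113 and 55.9, a combo ratio of 0.264 (0.243 to 0.287). By level the start sites of Esr1 and Esr2 thus differed less between lists than that of Srd5a1. They were also far weaker in Ctrl, and ratios moved with the Ctrl level over all regions. The Srd5a1 log2 ratio after IFNγ went from −0.90 to −0.27 by the local fold, and to −0.35 when centred on regions of like level. After Oxali and Cispl no steroid enzyme gene was past 1.5-fold lower by the local fold.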

How the data were processed

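Libraries of Myc-CaP cells were made by ATAC-seq, 2 per group in 5 groups, 10 in all. Per the study's methods, the authors trimmed reads with cutadapt, aligned them to mm10 with Bowtie2 2.2.8, filtered them with SAMtools, removed duplicates and mitochondrial reads, pooled both libraries of a group and called peaks with MACS2 2.1.0 without a control library. The deposited lists give for each summit a fold over local background (a ratio), a −log10 p and a −log10 q, where p-values and q-values are the caller's.

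Pileup and background were solved from the deposited fold and −log10 p for 100% of summits, and intervals overlapping by 1 bp were merged. Level is the highest pileup over the list's genome background. Exact Clopper-Pearson intervals at 95% on ratios cover counting error only, since no list has a replicate. Python 3.11.15, numpy 2.4.6, pandas 2.3.3, scipy 1.17.1 and matplotlib 3.10.9 were used, and the calculation was tested on simulated data. The regions named were, for each gene, those at its start sites, the strongest by mean level, that called in all lists with the largest log2 ratio either way, the gain with the highest −log10 q and those with an element of at most 1 mismatch. Of other pathway genes, up to 3 of each list with a start-site region in all lists were named, the first in list order. Other regions named (the 2-mismatch neighbour at Tsc22d3, those upstream and downstream of Tmprss2 and downstream of Per1, the gains highest by level, and the largest differences between the drugs) and the gene Lcn2 were chosen after their values were seen. Alternatives were q at most 1e-05, a 5 kb window, other scalings and other element settings. The members and lists were chosen with earlier results of these data known. Of the other listed genes, most enter counts only and 2 are not reported here.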

Additional observations from a re-analysis of the deposited data

How the results depend on the processing

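No paired analysis was possible because both libraries of each group were pooled before calling, and for the same reason no library could be left out. Of 104 summary values under other settings, 77 stayed within the interval of the main value, 26 moved and 1 reversed. Of 104 shares of members past a threshold, mostly the higher and lower shares, 66 stayed and 38 moved, 12 of these at 2-fold. Of 904 values of named regions 493 stayed, 396 moved and 15 reversed. The cause was not tested. At q of at most 1e-05 the share of members called was 57.9% in Ctrl, 74.7% in Cispl, 56.8% in IFNγ and 69.9% in combo, and with that limit for strong calls 4.11% were lost after Oxali and 15.8%, 3.77% and 13.7% gained after Cispl, IFNγ and combo. Leaving out regions within 500 bp of the other list, a setting chosen after seeing the data, gave gains of 7.19% after Oxali, 14.0% after Cispl, 3.08% after IFNγ and 9.93% after combo, and losses of 2.74% after IFNγ. Within 5 kb, 3.92% were lost after Oxali. Leaving out the start sites of other genes was also chosen after seeing the data. The median log2 ratio became −0.28 after Oxali, −0.08 after IFNγ and −0.02 for Cispl against Oxali under median centring, −0.08 after Cispl, −0.04 after IFNγ and 0.03 for Cispl against Oxali when centred by level class, −0.07, −0.24 and −0.10 for the same 3 when pileups were summed over summits, and −0.15 after IFNγ and −0.05 after combo by the local background fold. The share of members with an element was 3.08% at 1 mismatch and 2.40% for the reversed sequence. Directions reversed by the local fold at the Sgk1 region at chr10:21991208-21991764 after Cispl (0.10), at Per1-B (0.03), at the Per1 region at chr11:69099846-69100235 (0.06) and at the strongest Tmprss2 region (−0.20), the last 3 after combo. Summing over summits reversed IFNγ at the Sgk1 region at chr10:21992096-21992763 (0.06) and at the Sgk1 start site (0.09), and the strongest Tsc22d3 region after Cispl (0.03) and combo (0.38). Centring by level class reversed combo at the strongest Fkbp5 region (0.28), the Fkbp5 5′ end (0.33), the strongest Zbtb16 region (0.08), the Zbtb16 5′ end (0.13) and the strongest Tsc22d3 region (0.18), and Cispl at the strongest Fkbp5 (0.11) and Tsc22d3 (0.02) regions. Depth limits the weakest calls: regions under a level of 1.70 to 1.96 could not be called, and the Cispl list ends at a higher −log10 p than the others.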

Other observations

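Regions with an element of at most 2 mismatches were also compared over the whole series, as a description. Of 12094 such regions, 29.2% were gained after Oxali, 37.5% after Cispl, 3.08% after IFNγ and 33.3% after combo, against 20.9%, 27.3%, 5.90% and 29% of the 199013 regions without one. Their median log2 ratio among regions called in both lists was 0.49 after Oxali, 0.41 after Cispl, −0.27 after IFNγ and 0.44 after combo, against 0.17, 0.11, −0.23 and 0.16. Centred on regions of like level it was 0.28, 0.24, −0.05 and 0.26. The 21 members with a match had medians of −0.04, −0.31, −0.52 and −0.22, against −0.15, −0.19, −0.32 and −0.27 for members without one. Centred on regions of like level these were 0.01, 0.04, −0.33 and 0.05 against −0.18, −0.09, −0.02 and −0.20. The regions share lists, depth and the Ctrl list, so they are not replicates, and no test was made.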
